A study of Mus musculus with 9 samples.

Results

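Ccl21a and Ccl21c are copies of the mouse chemokine gene Ccl21, and the values here are those of the array probes that carry their NCBI gene numbers, 18829 and 65956, in the probe identifier. Each number was carried by 1 probe, so 2 probes of 46116 and 2 of the 8702 genes that could be named were taken. Ccl21b and Ccl21d are the other copies in the RefSeq gene table. Their numbers, 100042493 and 100862177, are longer than those read from probe identifiers. They could therefore not be matched by number, whether or not the array holds a probe for them. The genes were chosen by their signal and detection on these same arrays, knockout against wild type by sample title, in an earlier look at the data. That contrast is therefore described and not tested.

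The arrays measured RNA from brain tissue of C57BL/6 mice aged 8 months. A group of 4 mice was knockout for CAIX (carbonic anhydrase IX, the product of Car9, a membrane enzyme that acts at the outer cell surface), and 5 mice were wild type. Each mouse was put on 1 single-colour Illumina bead array. The labels name neither the construction of the knockout allele, nor the sex of the mice, nor a brain region.

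CCL21 is a secreted chemokine that binds the receptor CCR7. It guides T cells and mature dendritic cells into lymph nodes and along lymphatic vessels, where lymphatic endothelium and lymphoid stromal cells make it. CCL19 is the other ligand of CCR7, and ACKR4 is a scavenging receptor that removes both ligands. Mouse neurons are known to make CCL21 after injury, and CXCR3 on microglia has been reported to respond to it. The mouse genome carries several near-identical Ccl21 copies beside Ccl19 on chromosome 4, and the plt mutation of mice removes their expression in lymphoid organs.

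The labels conflict, and every group value depends on how they are read. The sample title and the genotype characteristic name different genotypes for 6 of the 9 samples. In addition, 4 arrays lie under one sample in the table of signals and under another in the table of processed values. This leaves 4 readings, and only 3 arrays (knockout 1, wild type 1 and wild type 2) keep their group in all of them. An array carries here the title of the sample to which the signal table's header assigns it, and the other readings are given beside that one.

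The sequences just upstream of the annotated starts are shown to let the copies be compared where their transcription begins. They are not part of the RNA that a probe binds. RefSeq sequence of build GRCm38.p6 was at hand for Ccl21a and Ccl21d, and Ccl21b and Ccl21c are named only. The shared stretch of 249 bases is printed 5′ to 3′ on the strand of the gene, at chr4:42773992-42774240 (minus strand) for Ccl21a and chr4:41903363-41903611 (plus strand) for Ccl21d. The capital marks the base at which the copies differ.
Ccl21a: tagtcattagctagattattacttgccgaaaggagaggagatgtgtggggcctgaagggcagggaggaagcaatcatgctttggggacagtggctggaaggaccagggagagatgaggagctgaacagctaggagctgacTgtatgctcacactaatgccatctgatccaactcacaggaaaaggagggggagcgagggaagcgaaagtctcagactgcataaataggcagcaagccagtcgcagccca
Ccl21d: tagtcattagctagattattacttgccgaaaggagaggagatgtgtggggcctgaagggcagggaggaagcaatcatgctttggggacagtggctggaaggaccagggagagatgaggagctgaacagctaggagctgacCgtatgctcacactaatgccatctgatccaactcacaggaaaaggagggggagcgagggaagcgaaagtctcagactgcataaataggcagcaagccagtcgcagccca
These stretches were the same at 248 of 249 bases (99.6%), with T141C as the single difference of Ccl21d from Ccl21a, counted from 1 at the 5′ end. The annotated starts of the genes were offset by 1 base in this alignment. A motif close to a TATA box, CATAAATA, was searched for after the sequence had been seen. It occurred in both copies and in 0.892% of 32851 promoters of the RefSeq table, searched on both strands over the 250 bases before the start. The motifs TATAAA (in 12.4% of promoters), TGAGTCA (4.46%) and CAGCTG (13%) were in neither copy. The probes' own sequences were not used here, so which Ccl21 copy or copies each probe reads cannot be told apart. The names Ccl21a and Ccl21c stand for the probes from here on.

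The Ccl21a probe had deposited signals, on a linear intensity scale without normalization, of 176.8, 153.5, 174.4 and 118.2 on knockout arrays 1 to 4. On wild-type arrays 1 to 5 its signals were 304, 428.2, 342.7, 452.7 and 274. The highest knockout signal therefore lay under the lowest wild-type one, and the groups did not overlap. The mean signal was 155.7 ± 27.1 on knockout arrays (SD, n = 4) and 360.3 ± 77.6 on wild-type arrays (SD, n = 5).

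The Ccl21c probe had signals of 196.3, 154.3, 173.8 and 139.5 on knockout arrays 1 to 4. Its signals were 441.1, 755.2, 558.3, 730.2 and 454.7 on wild-type arrays 1 to 5. The group means lay further apart than the SD of either group. They were 166 ± 24.6 on knockout arrays (SD, n = 4) and 587.9 ± 149 on wild-type arrays (SD, n = 5). An intensity also holds the background of the array, so the ratio of such means is not a fold change of RNA.

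**Figure D1:**
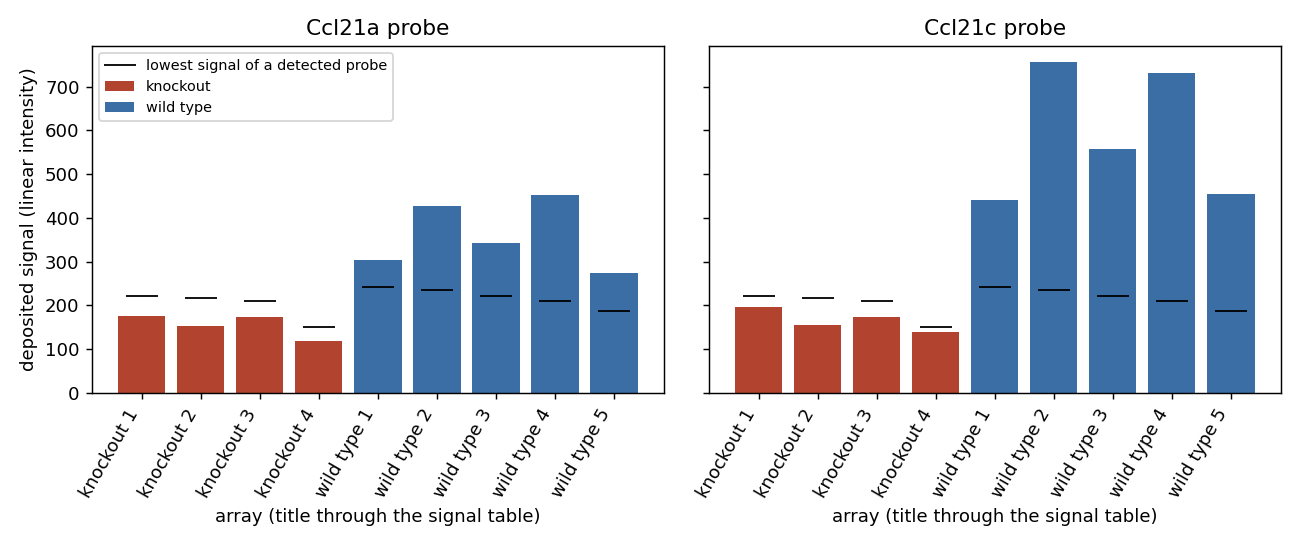
Deposited signal (linear intensity, vertical axis from 0) of the Ccl21a and Ccl21c probes on each array (horizontal axis), with a black line at the lowest signal of a detected probe on that array. The 4 knockout bars end under the line in both panels, at no more than 176.8 for Ccl21a and 196.3 for Ccl21c, and the 5 wild-type bars end above it, at no less than 274 and 441.1.

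A probe was called detected on an array where its detection p, which compares its signal with the negative control beads, was under 0.05. Both probes were detected on 0 of 4 knockout arrays and on 5 of 5 wild-type arrays. Of all 46116 probes, 9 (0.0195%) had this pattern and 9 (0.0195%) had the opposite one. These shares are background for the members and no support for them, since the members were chosen by this pattern. The detection fraction deposited beside each signal (1 minus the detection p) was 0.5681, 0.1572, 0.7141 and 0.4858 for Ccl21a on knockout arrays 1 to 4, and 0.999 or 1 on the wild-type arrays. For Ccl21c it was 0.819, 0.166, 0.700 and 0.888 on knockout arrays 1 to 4, and 1 on every wild-type array. Knockout 4 was thus the array closest to a detection call for Ccl21c.

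Arrays differed in brightness, with median signals of 190.5, 189.75, 182 and 133.2 on knockout arrays 1 to 4 and 209.8, 203.4, 195.75, 184.3 and 167 on wild-type arrays 1 to 5. Divided by its array's median, the Ccl21a signal was 0.928, 0.809, 0.958 and 0.887 on knockout arrays 1 to 4, and 1.45, 2.10, 1.75, 2.46 and 1.64 on wild-type arrays 1 to 5. The Ccl21c signal was 1.03, 0.813, 0.955 and 1.05 array medians on knockout arrays 1 to 4, and 2.10, 3.71, 2.85, 3.96 and 2.72 on wild-type arrays 1 to 5. The order of the groups was thus the same after this scaling. On the knockout arrays both probes sat among the dim bulk of the array, with 10.5% to 42.8% of all probes at or under the Ccl21a signal and 11.2% to 55.8% at or under the Ccl21c signal. On wild-type arrays those shares were 78.1% to 85.9% for Ccl21a and 85.7% to 91.7% for Ccl21c.

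After background correction and quantile normalization, Ccl21a had log2 values of 6.82, 6.75, 6.84 and 6.80 on knockout arrays 1 to 4, and 7.22, 7.76, 7.32, 7.84 and 7.22 on wild-type arrays 1 to 5. The means were 6.80 ± 0.0381 in knockout brain (SD, n = 4) and 7.47 ± 0.304 in wild-type brain (SD, n = 5), a log2 difference of -0.67, knockout minus wild type. Because the probe was not detected on any knockout array, only a bound holds there, and Ccl21a was at least 1.44-fold lower in knockout brain. The bound compares the wild-type mean with a knockout mean in which an array's value is raised, where it is lower, to that of the dimmest detected probe of the array.

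Ccl21c had log2 values of 6.88, 6.76, 6.84 and 6.89 on knockout arrays 1 to 4, and 7.81, 8.99, 8.10, 8.85 and 7.93 on wild-type arrays 1 to 5. The means were 6.84 ± 0.0614 in knockout brain (SD, n = 4) and 8.34 ± 0.547 in wild-type brain (SD, n = 5), a log2 difference of -1.49 and a fall of at least 2.62-fold in knockout brain. The lowest wild-type value exceeded the highest knockout value by 0.377 on the log2 scale for Ccl21a and by 0.924 for Ccl21c. In the authors' processed log2 values, with the same arrays, the differences were -1.08 for Ccl21a and -1.69 for Ccl21c. In bulk tissue, fewer cells that express a gene and less RNA per cell cannot be told apart.

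The wild-type arrays differed among themselves in the Ccl21 probes. The highest over the lowest wild-type signal was 1.65-fold for Ccl21a and 1.71-fold for Ccl21c. Wild type 2 and wild type 4 were the high arrays for both probes, wild type 3 lay between, and wild type 1 and wild type 5 were the low ones. The wild-type SD of Ccl21a was larger than that of 97.3% of the 16375 probes detected on at least 4 of the 9 arrays, and that of Ccl21c larger than 99.7%, where the median probe had an SD of 0.0869. On knockout arrays, where the probes were not above background, the SDs exceeded those of 10.6% and 25.8% of these probes, and the median probe had an SD of 0.11. Both members entered this set of 16375 probes through the wild-type arrays alone.

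Of the 16375 probes, 291 (1.78%) had every knockout array below every wild-type array, both members among them, and 312 (1.91%) had every knockout array above. The median log2 difference of all 16375 was -0.0003, with 50.2% lower in knockout brain, and 112 (0.684%) were lower by more than 0.5. By the size of the fall, Ccl21c ranked 4 and Ccl21a ranked 49 of 16375. These ranks describe the choice of the members and test nothing.

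**Figure D2:**
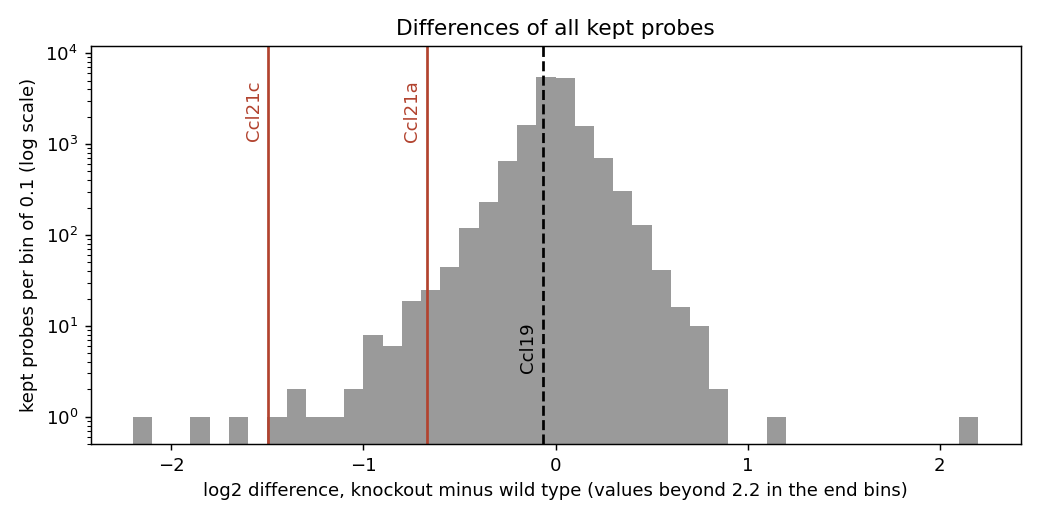
Number of probes (vertical axis, log scale) per bin of 0.1 in the log2 difference, knockout minus wild type by title (horizontal axis), for the 16375 probes detected on at least 4 arrays, with values beyond -2.2 or 2.2 counted in the end bins. The red lines mark Ccl21c at -1.49 and Ccl21a at -0.67 in the thin left flank. The dashed line marks Ccl19, a probe read close to background, at -0.067 in the centre.

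Of the 9 probes detected on all wild-type and no knockout arrays, the Ccl21 probes were the 2 with a gene name and ranked 2 and 3 by the size of their fall. The first was an unnamed probe for a RIKEN cDNA clone, with signals of 178.4, 201.6, 208.4 and 148.2 on knockout arrays 1 to 4. Its wild-type signals were 444.2, 669.1, 613.1, 1034.3 and 572.3, and it was at least 3.07-fold lower in knockout brain. Its detection p was 0.0545 on knockout 3 and 0.0563 on knockout 4, just over the threshold of 0.05. The other 6 had log2 differences between -0.18 and -0.06.

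NeoR-S, a probe named for neomycin resistance, the drug marker of many targeting constructs, gave the reverse picture. Its signals were 1511.6, 1178.9, 1213.1 and 2052.4 on knockout arrays 1 to 4, and 191.8, 184.9, 181.4, 171.2 and 142.9 on wild-type arrays 1 to 5. It was detected on 4 of 4 knockout arrays and on 0 of 5 wild-type arrays. On each of the 9 arrays exactly 1 of NeoR-S and Ccl21c was detected, and the same held for NeoR-S and Ccl21a. This follows from the NeoR-S calls and the detection pattern by which the members were chosen, so it adds no support. Whether the knockout allele holds this marker is not in the labels, and no probe matched Car9, so the knockout itself has no direct check here.

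Under the other readings the members' groups overlapped. With the genotype characteristic through the signal table, both probes were detected on 3 of 4 knockout and 2 of 5 wild-type arrays. Ccl21a then averaged 7.30 ± 0.419 in knockout (SD, n = 4) and 7.08 ± 0.426 in wild type (SD, n = 5), and Ccl21c 7.94 ± 0.812 and 7.46 ± 0.959, with log2 differences of 0.23 and 0.48. The direction was therefore turned, by less than the spread within the groups.

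With titles through the processed table, both probes were detected on 2 of 4 knockout and 3 of 5 wild-type arrays. The log2 differences were -0.031 for Ccl21a and -0.12 for Ccl21c. With the characteristic through the processed table, they were detected on 1 of 4 knockout and 4 of 5 wild-type arrays, with log2 differences of -0.41 and -0.89. NeoR-S was detected on 1 of 4 knockout and 3 of 5 wild-type arrays by the characteristic through the signal table. It was detected on 2 of 4 and 2 of 5 by titles through the processed table, and on 3 of 4 and 1 of 5 by the characteristic through that table. Among the 3 arrays that no reading moves, Ccl21a and Ccl21c were undetected on knockout 1 and detected on wild type 1 and wild type 2. These calls are among those that chose the members, and they hold 1 knockout array only.

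**Figure D3:**
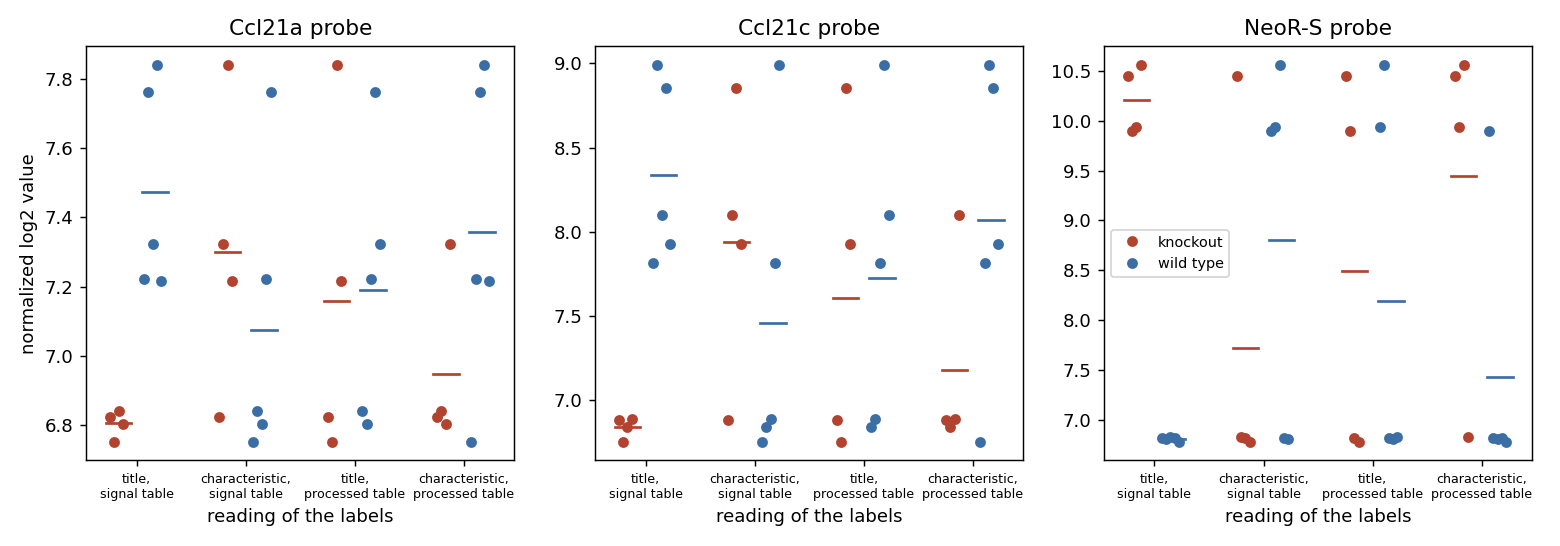
Normalized log2 values (vertical axis, a separate scale per panel) of Ccl21a, Ccl21c and NeoR-S under the 4 readings of the labels (horizontal axis), with 1 point per array, knockout left of wild type, and a line at each group mean. The points of knockout and wild type are apart in the leftmost reading of each panel and mixed in the other 3.

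Xist, which is transcribed from the inactive X chromosome of females, was high on knockout 1, wild type 1 and wild type 2 and low on the other 6 arrays. Among the arrays high in Xist the log2 difference was -0.67 for Ccl21a and -1.52 for Ccl21c, on 1 knockout and 2 wild-type arrays. Among those low in Xist it was -0.66 for Ccl21a and -1.47 for Ccl21c, on 3 knockout and 3 wild-type arrays. The knockout values in these differences are at background, and the detection calls in each set follow from those that chose the members. These values are a description, and the part of sex in them was not tested.

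The other genes of the CCR7 axis could be read in part. Ccl19, whose row adjoins that of Ccl21a in the gene table, had signals of 248.2, 239.3, 232.8 and 163.4 on knockout arrays 1 to 4. Its signals were 303.5, 275.4, 251.6, 237.8 and 217.6 on wild-type arrays 1 to 5, and it was detected on all 9. Its normalized means were 7.02 ± 0.0411 in knockout brain (SD, n = 4) and 7.09 ± 0.0836 in wild-type brain (SD, n = 5). The log2 difference of -0.067 (SE 0.0495) did not pass the threshold (adjusted p = 0.675 by limma with Benjamini-Hochberg adjustment over 16375 probes). Ccl19 was read close to background, with knockout values between 6.97 and 7.07. The dimmest detected probe lay between 6.93 and 6.97 on those arrays. Little room was therefore left for a fall of Ccl19 to show. Ackr4, the scavenging receptor, was detected on 0 of 9 arrays. No probe matched Ccr7 or Cxcr3.

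By title, 4 of the 16375 probes (0.0244%) passed an adjusted p of 0.05 in the limma fit, 1 of them (0.00611%) lower and 3 higher in knockout brain, and 1876 (11.5%) had an unadjusted p under 0.05. The split was 7 lower and 4 higher without background correction, 9 lower and 4 higher in the authors' processed values, and 0 lower and 2 higher with median scaling. Gene lists were drawn up for the chemokine system, for the cells that make or answer CCL21, for brain cells and for the neighbours of the Ccl21 copies. They held 52 distinct genes with a usable probe, the Ccl21 copies left out. None of the 52 passed the threshold, and 6 of them (11.5%) had an unadjusted p under 0.05.

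Among the other chemokine ligands, 13 of 35 genes had a probe and 4 were measured, of which 3 were lower, 1 was higher and 0 passed, with a median log2 difference of -0.29 against -0.0003 for all probes. Cx3cl1, the neuronal ligand of the microglial receptor CX3CR1, had signals of 3219.1, 3320.6, 4286.4 and 4338.2 on knockout arrays 1 to 4. On wild-type arrays 1 to 5 its signals were 4423.2, 4669.8, 5247.3, 5013 and 4972.4. The groups did not overlap after normalization, at 11.80 ± 0.169 in knockout (SD, n = 4) and 12.14 ± 0.0511 in wild type (SD, n = 5), and the difference of -0.34 (SE 0.0744) had an adjusted p of 0.183 by limma. Of all 16375 probes, 1.78% likewise had every knockout array below every wild-type array. Without knockout 3, the highest knockout array for Cx3cl1 after normalization (12.05), the difference was -0.42, with an adjusted p of 0.0272 by limma. Under every other alternative tried, no gene of the lists passed.

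Cxcl14, a chemokine of epithelia and interneurons, had means of 8.75 ± 0.113 in knockout (SD, n = 4) and 9.04 ± 0.0972 in wild type (SD, n = 5), a log2 difference of -0.29 (limma, adjusted p = 0.204). Its groups were apart by 0.094 on the log2 scale. Of all 16375 probes, 1.78% also had every knockout array below every wild-type array. Ccl27a, a skin chemokine whose gene lies near the Ccl21 copies, had normalized values of 9.23, 9.33, 9.26 and 10.21 on knockout arrays 1 to 4, and between 9.63 and 9.96 on the wild-type arrays. The other knockout arrays were below every wild-type array and knockout 4 was above them all, and the difference of -0.29 had an adjusted p of 0.622. Ccl25, a ligand of CCR9, differed by 0.018 (adjusted p = 0.905 by limma), at means of 7.09 in knockout and 7.07 in wild type, close to background. Cxcl1 was detected on 1 knockout and 1 wild-type array, and Ccl1, Ccl2, Ccl28, Cxcl2, Cxcl3, Cxcl9, Cxcl12 and Cxcl16 on none. Probes for 3 other chemokine receptors (Ccr9, Ccrl2 and Cxcr2) were not detected on any array.

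The list drawn up for the lymphotoxin and noncanonical NF-kB pathway, which induces Ccl21 in lymphoid stroma, held 15 genes, of which 2 were measured. Tnfrsf1a had a log2 difference of -0.18 and Birc2 one of 0.069, and neither passed (lowest adjusted p = 0.655 by limma). These 2 genes do not read the activity of the pathway. Among genes listed for CCR7 signalling, Rhoa, a small GTPase of cell migration, differed by -0.29. St8sia4, which makes the polysialic acid that helps CCR7 bind CCL21, differed by 0.13. Gng2, a G protein subunit, differed by 0.11 and Grk3, a receptor kinase, by 0.0074, and of these 4 genes none passed (lowest adjusted p = 0.462). Grk3 was read close to background, with detection on 3 of 4 knockout and 3 of 5 wild-type arrays.

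Few markers of the cells known to make or follow CCL21 could be read. Among lymphatic endothelial and lymphoid stromal markers, 6 of 16 had a probe and 3 were measured, with Prox1 (the lymphatic transcription factor) differing by -0.030, Vcam1 by -0.0033 and Vegfc by -0.0009, and 0 of 3 passed (lowest adjusted p = 0.934 by limma). Their summed linear level ran between 567 and 789 on knockout arrays and between 624 and 766 on wild-type arrays. All 5 probes of the 4 T cell genes that could be read were undetected on all 9 arrays. Of the dendritic cell and antigen presentation genes 3 were measured, Cd74 with a difference of 0.069, Zbtb46 with 0.033 and H2-Ab1 with 0.0009, and 0 passed. Cd74 was detected on 3 of 4 knockout and 3 of 5 wild-type arrays, H2-Ab1 on 3 of 4 and 4 of 5, and Vegfc on 4 of 4 and 4 of 5. The group means of Prox1, Vegfc, Cd74, Zbtb46 and H2-Ab1 lay between 6.96 and 7.11, close to background. Small differences there do not show that these genes were unchanged. The B cell gene Ighm differed by -0.24 (adjusted p = 0.831).

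Neuronal and glial transcripts, the defining ones of brain tissue, were detected in both groups. Of 7 neuronal genes 6 were lower and 1 was higher, Grin1 by -0.40, Rbfox3 by -0.28, Syn1 by -0.33 and Syt1 by 0.17, and 0 passed (median -0.12, lowest adjusted p = 0.23 by limma). All 6 oligodendrocyte genes were lower in knockout brain and 0 passed (median -0.35, lowest adjusted p = 0.227), with Cnp at -0.38 and Mobp at -0.63. Their summed linear level was between 3317 and 5235 on knockout arrays and between 4760 and 6918 on wild-type arrays. The 4 astrocyte genes were lower (median -0.14). The 3 microglial genes had a median of 0.043, the value of Cd68, with Csf1r at -0.22 and Cd53 at 0.12. Cd68 was detected on 2 of 4 knockout and 2 of 5 wild-type arrays only. Genes of the meninges, which hold lymphatic vessels, had a median of 0.26 with a summed level between 620 and 2534 on knockout arrays and between 795 and 1336 on wild-type arrays, choroid plexus genes one of -0.011, and endothelial genes one of 0.033. No gene of these lists passed the threshold, and the part of brain cell makeup in the Ccl21 values was not tested.

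Car9, the targeted gene, lies on chromosome 4 as the placed Ccl21 copies do, with 27 gene rows of the RefSeq table, 19 of them protein-coding, between Ccl21a and Car9. Ccl21c is on an unlocalized scaffold. A window was taken from 20 rows before the first Ccl21 copy to 20 rows after Car9. Of 104 genes considered in it, 15 were matched to a probe and 8 were measured. Genes with numbers as long as those of Ccl21b and Ccl21d could not be matched by number. Of the 8, 6 were lower, 2 were higher and 0 passed the threshold (median -0.024, lowest adjusted p = 0.31 by limma). Phf24, 4 rows from Ccl21a on the side of Car9, differed by -0.13 and Il11ra2, an interleukin-11 receptor copy 5 rows away on the other side, by -0.022. Vcp, an ATPase of protein turnover 8 rows away, differed by 0.099 and Fam214b, 12 rows away, by -0.0058.

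Unc13b, a gene of synaptic vesicle priming 13 rows from Ccl21a, had the largest difference of the 8, at 0.72 (SE 0.244, adjusted p = 0.31 by limma). Its normalized values were 8.76, 9.38, 9.13 and 8.23 on knockout arrays 1 to 4, and 8.09, 7.98, 7.94, 8.75 and 8.04 on wild-type arrays 1 to 5. Wild type 4 lay within the knockout range and the groups overlapped. Il11ra1, the main interleukin-11 receptor gene, lies 48 rows away and differed by -0.026. These values of Il11ra1 and Il11ra2 are each from 1 probe, and their other probes were not detected on any array. The Il11ra probes may share RNA, as near-identical copies do, and were not told apart. Whether sequence around Car9 differs between the groups was not tested.

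**Figure D4:**
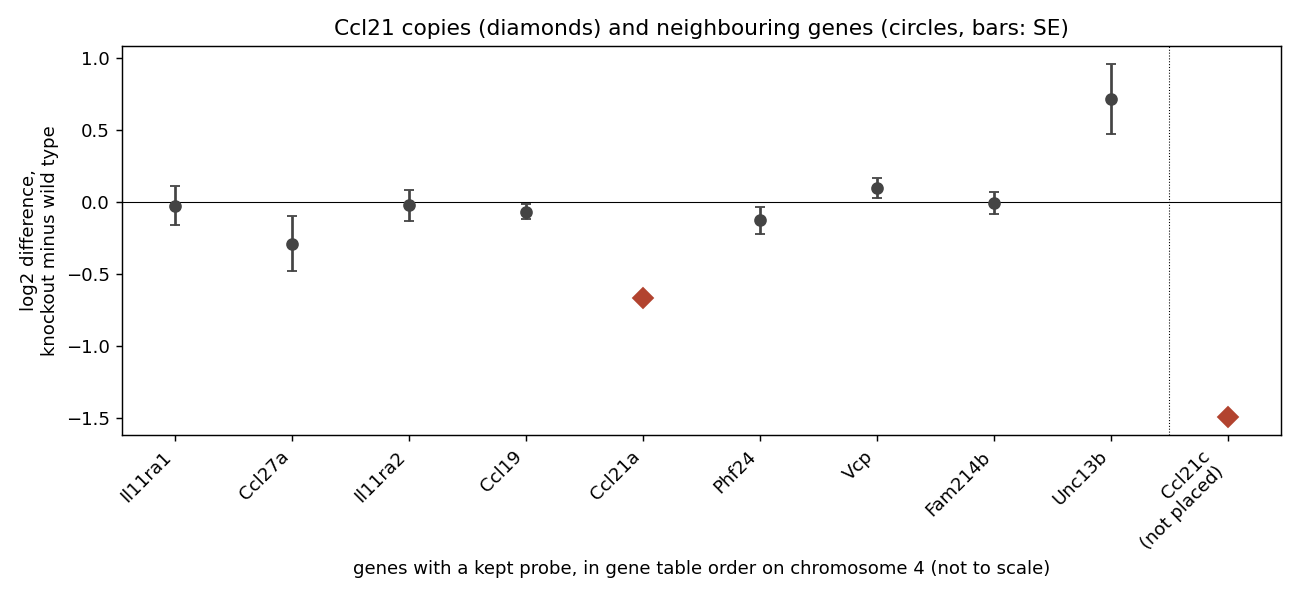
Log2 difference, knockout minus wild type by title (vertical axis), of the 8 measured genes around the Ccl21 copies in their order on chromosome 4 (horizontal axis, not to scale), as circles with SE bars, and of Ccl21a and Ccl21c as diamonds without bars. Ccl21a at -0.67 stands between Ccl19 at -0.067 and Phf24 at -0.13, and Unc13b at 0.72 is the one neighbour beyond 0.5. Ccl19 was read close to background, which left little room for a fall.

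The pattern of the Ccl21 probes across the 9 arrays was close to the same, with a Pearson correlation of 0.99 between their normalized values. These arrays fall into separated groups, so the value mostly reads the split between knockout and wild type, and probes of near-identical genes may bind the same RNA. The named genes next most like Ccl21c were Pum2 (0.949), an RNA-binding translational repressor, Abcb9 (0.911), a lysosomal peptide transporter, St6galnac6 (0.906), a sialyltransferase, Shc1 (0.902), a signalling adaptor, and Mafg (0.893), a small Maf transcription factor. Unc119b (0.892), the anion exchanger gene Slc4a3 (0.889), Dab2ip (0.882) and the cyclin gene Ccny (0.88) completed the 10. Apart from Ccl21a, their log2 differences lay between -0.65 for Mafg and -0.064 for Shc1, and all were lower in knockout brain, as the choice by likeness makes them.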

How the data were processed

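Brain RNA of 4 CAIX knockout and 5 wild-type mice was hybridised to single-colour Illumina bead arrays after biotin labelling, per the labels' protocols. The authors deposited linear intensity signals without normalization, per the file headers, and beside each signal a fraction that rises with it; the detection p is 1 minus it. The authors also deposited processed log2 values, which lay within 0.0051 of quantile-normalized log2 signals. Image analysis software and probe annotation were not stated in the labels or files.

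Of 46120 rows, 4 controls were left out. The other 46116 were background-corrected and quantile-normalized by the neqc function (R 4.3.3, limma 3.58.1; normexp with the detection p, offset 16). To be kept, a probe needed 4 or more of the 9 arrays with detection p under 0.05 (16375 probes), and knockout and wild type by title were compared with lmFit and eBayes, two-sided, with Benjamini-Hochberg adjustment and a threshold of 0.05. The number of arrays limits the precision. The design text counts mice, so each array was taken as 1 animal.

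Numbers in probe identifiers were read as NCBI gene numbers, without numbers as long as those of Ccl21b and Ccl21d. Of 10024 such numbers 81.1% were in the RefSeq gene table (GRCm38.p6), against 45.9% after adding 1, so the reading is an inference. With RIKEN clone names, 10814 probes were named. A gene counted once in a list, by its brightest kept probe, and some genes of the receptor and neighbour lists are not reported here. The members, the 17 lists and the tests were chosen with earlier results of these data known. Named are the members, the CCR7 axis, up to 4 genes of smallest p per list, the 10 probes most like Ccl21c, probes with the same detection pattern and the nearest measured neighbours on chromosome 4. NeoR-S and Xist are named besides, as checks of the labels, and the unnamed clone probe was singled out after its values were seen. The fit was tested on simulated data. Alternatives were the other readings of the labels, other background corrections, normalizations, filters and priors, array weights, the replicate number as a block, sex read from Xist as a covariate, and leaving out each array in turn.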

Additional observations from a re-analysis of the deposited data

Results flagged for a closer look

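In each group of arrays, the highest and the lowest array were compared with the nearest other one by Dixon's criterion for the probes named here. Of 118 groups looked at, 11 held an array that stood apart, and chance gives about 1 in 20. Neither Ccl21a nor Ccl21c was among them.

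Knockout 4, the dimmest array, stood apart for 3 genes, on the normalized log2 scale. Its value was 10.21 for Ccl27a, against 9.33 on the nearest knockout array, and 8.42 for Mobp, a myelin gene, against 10.21. It was 9.41 for Phf24, against 9.14. Col8a1 was 7.29 on knockout 1, against 6.95 on the nearest knockout array.

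Wild type 5 stood apart for NeoR-S, at 6.78 against 6.81, a probe not detected on any wild-type array. It did so too for H2-Ab1 at 7.17 against 6.999, Egfl7, an endothelial gene, at 7.69 against 7.48, and Mgp, a matrix gene, at 9.40 against 8.70. Wild type 4 was at 7.60 for Tnfrsf1a, against 7.91, and at 8.75 for Unc13b, against 8.09. Slc4a3 was 7.83 on wild type 2, an array high in both Ccl21 probes, against 7.55 on the nearest wild-type array.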

How the results depend on the processing

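The Ccl21 differences depend on how the labels are read. With the genotype characteristic through the signal table, the log2 difference was 0.23 for Ccl21a and 0.48 for Ccl21c, with detection on 3 knockout and 2 wild-type arrays, and NeoR-S (-1.08) and Abcb9 (0.18) also changed direction. With titles through the processed table it was -0.031 and -0.12 (detected on 2 knockout and 3 wild-type arrays), and with the characteristic through that table -0.41 and -0.89 (detected on 1 knockout and 4 wild-type arrays). In each of these 3 readings 0 probes passed the threshold. By title through the signal table, Ccl21a and Ccl21c were lower in knockout brain under every processing tried that gave them a value. Ccl21a was at -1.08 without background correction and at -1.08 in the authors' processed values, and leaving out one array in turn gave -0.73 to -0.58 for Ccl21a and -1.63 to -1.33 for Ccl21c. Detection was called on each array by itself, so leaving out one array could not change the calls on the others.

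The 4 probes past the threshold became 11 without background correction, 2 with median scaling, 13 in the processed values, 7 with a mean-dependent and robust prior, 2 with sex as a covariate, 0 among probes detected on all 9 arrays, a set that holds neither member, and between 2 and 48 when one array was left out. The count was 48 without knockout 1, 7 without knockout 3, and 2 without wild type 1, 2, 3 or 5. With the replicate number as a block, which rests on a shared number alone, 1 probe passed, and the differences were -0.73 for Ccl21a and -1.60 for Ccl21c. Same-numbered arrays did not deviate together (correlations of 0.101, 0.0885, -0.309 and 0.0113), and knockout 3 correlated best with wild type 4 (0.445). Of the gene lists 0 members passed, and 1 (Cx3cl1) without knockout 3, a range of 0 to 1 over left-out arrays. The causes of these changes were not tested. On knockout arrays both Ccl21 probes were within the background, so their level there has only an upper bound.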
